A study of Mus musculus with 12 samples.

Results

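Kidney cortex of mice with non-alcoholic steatohepatitis (NASH) was compared with that of control mice after 12 weeks, in 3 libraries of each, which are 6 of the 12 RNA sequencing libraries in the series. The libraries were chosen by their titles, and same-numbered replicates were matched. NASH is liver disease with fat, inflammation and cell injury. The C57BL/6J mice of the NASH group received a Western diet (WD) and carbon tetrachloride (CCl4), a liver toxin, for 12 weeks, and the controls normal diet and corn oil, so that diet, toxin and liver disease cannot be told apart. The labels count 6 mice per group, 3 male and 3 female, but do not tell which sex each library came from, the hour of dissection, or whether a library is 1 animal or a pool. The p-values below therefore measure the spread between these samples. The other 6 libraries, control and NASH at 24 weeks, helped to estimate that spread and served as a second comparison.

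The kidney filters blood in the glomerulus and recovers most of the filtrate along the proximal tubule, after which the loop of Henle, the distal convoluted tubule, the connecting tubule and the collecting duct adjust salt, acid and water. Many of the transporters that do this work follow a daily rhythm. In the molecular clock, Arntl (BMAL1) pairs with Clock or Npas2 and activates genes through E-box sequences, among them the repressors Per and Cry, the nuclear receptors Nr1d1 and Nr1d2 (REV-ERB), and Dbp, Tef and Hlf, which act through D-box sequences. REV-ERB in turn represses Arntl, Npas2, Clock and Nfil3 at ROR elements, and Nfil3 competes with Dbp at the D-box. The positive and negative arms therefore peak at different hours, and the level of a clock gene in a single sample depends on the hour at which the tissue was taken.

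Depth, estimated from the steps between the deposited values, was 1.27e+07, 1.37e+07 and 1.31e+07 reads in controls 1, 2 and 3 and 1.24e+07, 7.17e+06 and 8.23e+06 in NASH libraries 1, 2 and 3. The value of 1 read on the deposited scale was therefore 1.96 in NASH 2 and 1.70 in NASH 3 against 1.01 to 1.11 in the others. Xist, the RNA of the inactive X chromosome, had a log2 value of 11.54 in control 1, 10.60 in NASH 1 and 2.97 to 4.29 in the remaining 4 libraries, with the Y-linked Ddx3y running the other way (3.69 and 2.48 against 8.95 to 9.62). Replicate number 1 thus holds the libraries with female expression and numbers 2 and 3 those with male expression, in both groups. Markers of kidney cortex were abundant in all 6 libraries, with the proximal tubule phosphate carrier Slc34a1 at 16.41 to 16.93 and Umod of the thick limb at 13.83 to 15.58. Changes are given as NASH minus control on the log2 scale of the deposited values, with the standard error (SE) of a limma model that holds the replicate number as a block.

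Across the cortex, 1494 of 11614 genes were called at a Benjamini-Hochberg adjusted p under 0.05, which is 12.9% of those tested. Of these 350 rose (3.01%) and 1144 fell (9.85%), with median changes of 0.54 and -0.59, and 43 of the first and 140 of the second changed at least 2-fold. All 1494 moved the same way in the 3 same-numbered pairs, as did 5787 of all 11614 genes (49.8%). In 1026 of the called genes the 3 NASH values and the 3 control values did not overlap. Over all genes 945 (8.14%) lay wholly higher and 1671 (14.4%) wholly lower in NASH.

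These counts rest on the pairing. Without the replicate block limma called 6 genes (0.0517%), among them Dbp and Coq10b, which were higher, and Npas2, Slc16a1 and Ndrg1, which were lower. Leaving out single libraries brought 1494 to 679, 410 and 253 without controls 1, 2 and 3, to 326, 596 and 1103 without NASH libraries 1, 2 and 3, and to between 1110 and 1533 without a 24-week library. The balance of higher and lower calls moved with the scaling, from 23.4% higher as deposited to 49.8% under median-of-ratios scaling (686 higher, 693 lower) and 43.2% under quantile normalization (532 and 698).

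Long transcripts were lower and short ones higher in NASH. In the shortest of 5 equal bins of genes by transcript length (median 1163 bases) the median change was 0.19, and 227 genes rose while 37 fell. In the longest bin (median 6390 bases) it was -0.30, with 8 genes up and 549 down. The same-numbered pairs each showed this slope, at 0.32, 0.048 and 0.18 in the shortest bin and -0.31, -0.39 and -0.23 in the longest. By GC content the median ran from -0.22 in the bin with the lowest GC (median 42.1%) to 0.11 in that with the highest (58.1%), and this slope was steepest in pair 1 (-0.27 to 0.42) and slight in pair 3 (-0.075 to 0.0053). When a smooth trend on length and GC was taken out of each library, 320 of 11523 genes were called (2.78%), and 263 of the 1494 were among them. The part of RNA quality or library preparation in this slope was not tested. Values with the trend removed are given below for many of the gene groups.

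**Figure D1:**
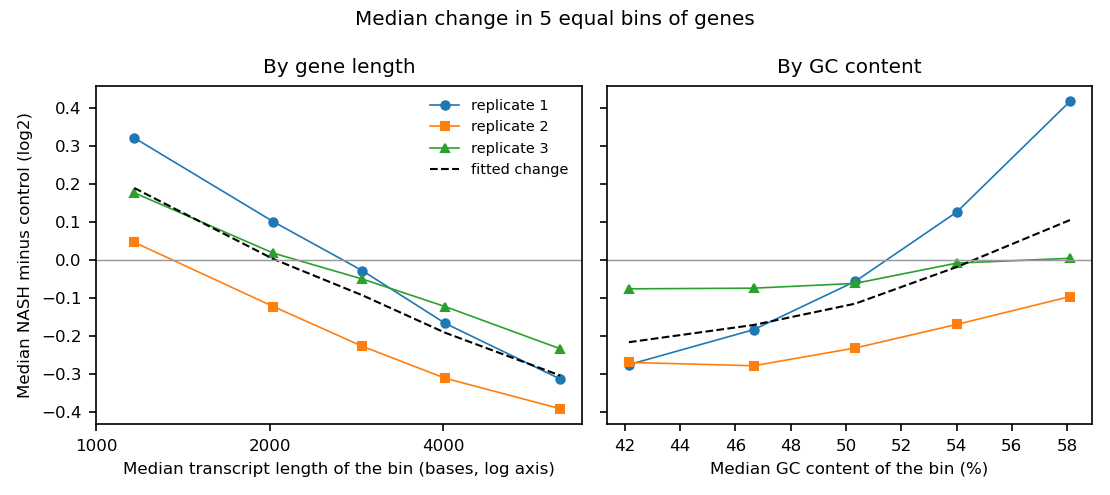
Median change between same-numbered NASH and control libraries (vertical axis, log2) in 5 equal bins of all genes, ordered by transcript length (left, log axis, in bases) and by GC content (right, in percent); coloured lines are the 3 pairs and the dashed line is the fitted change. All 3 pairs slope down with length, and pair 1 rises most with GC content, to 0.42 in the highest bin.

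The core clock genes changed in opposite directions in the 2 arms, and Dbp had the largest increase of any gene. Of 7 measured genes of the positive arm, which here includes Nfil3 and the ROR receptors, 4 fell and none rose, with a median change of -0.96. Nfil3, a repressor at D-boxes, was among the 4 that fell and was not counted with the D-box factors. Of 14 measured genes of the negative arm and the D-box factors, 8 rose and none fell, with a median of 0.61. Over all genes 3.01% rose and 9.85% fell, and the median was -0.08. With the trend on length and GC removed the medians were -0.57 and 0.82, and 4 and 7 of these genes were called.

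The promoter windows of 3 of these genes are shown because each holds a sequence through which the clock is known to act. Of 21 clock genes 16 were matched to RefSeq promoters on GRCm38.p6, in 25 windows of the 250 bases before a start site. Both strands were searched for the E-box CACGTG, the D-box TTATGTAA and the ROR element core TAGGTCA, and none of these words contains another. The E-box stood in windows of Cry1, Per1 and Tef (both Tef windows, of which the one before the start given in the files is shown), the D-box in that of Per3, the ROR element core in that of Nfil3, and none of the 3 in the other 11 genes. Of all 32851 RefSeq windows of this length 6.02% held the E-box, 0.819% the D-box and 2.23% the ROR element core. The sequences run 5′ to 3′ on the gene's strand, and capitals mark the matches. Nfil3 carries its match as the reverse complement.
Per3, chr4:151044666-151044915, minus strand: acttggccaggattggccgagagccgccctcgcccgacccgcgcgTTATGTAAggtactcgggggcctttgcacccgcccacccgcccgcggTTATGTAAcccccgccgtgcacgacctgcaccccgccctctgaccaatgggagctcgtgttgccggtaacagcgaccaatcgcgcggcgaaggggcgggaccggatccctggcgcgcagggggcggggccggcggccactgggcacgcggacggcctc
Tef, chr15:81811164-81811413, plus strand: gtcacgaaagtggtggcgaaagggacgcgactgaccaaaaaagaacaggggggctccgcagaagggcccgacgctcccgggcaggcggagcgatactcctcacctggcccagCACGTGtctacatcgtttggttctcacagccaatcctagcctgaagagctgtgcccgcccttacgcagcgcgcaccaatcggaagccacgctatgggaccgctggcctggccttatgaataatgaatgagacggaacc
Nfil3, chr13:52981040-52981289, minus strand: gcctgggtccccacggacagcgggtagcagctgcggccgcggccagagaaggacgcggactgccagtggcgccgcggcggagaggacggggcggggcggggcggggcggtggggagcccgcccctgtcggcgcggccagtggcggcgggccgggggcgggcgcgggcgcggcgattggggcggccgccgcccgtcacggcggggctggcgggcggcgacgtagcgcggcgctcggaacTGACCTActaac

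Among the genes listed with the positive arm, Nfil3 (gene ID 18030, chr13:52967209-52981039 on mm10), a repressor at D-boxes, stood at log2 8.48, 7.93 and 8.20 in controls 1, 2 and 3 and at 6.39, 4.29 and 5.35 in NASH libraries 1, 2 and 3. Every NASH value lay below every control value, a 7.26-fold fall (-2.86, SE 0.26, adjusted p = 0.00131). Npas2 (18143, chr1:39194272-39363240), the partner of Arntl, went from 8.14, 8.67 and 9.08 to 6.29, 5.92 and 5.85. It fell 6.10-fold (-2.61, SE 0.26, adjusted p = 0.00209), again without overlap. Arntl (11865, chr7:113207465-113314126) was at 9.42, 9.12 and 9.30 in controls and 7.83, 7.54 and 7.55 in NASH. Its libraries lay close together within each group, and the 3.12-fold fall (-1.64, SE 0.21, adjusted p = 0.00394) was nearly the same in every pair (-1.59, -1.58 and -1.74). Clock (12753, chr5:76209868-76304792) fell less, from 10.72, 9.77 and 9.91 to 9.54, 8.77 and 9.22 (-0.96, SE 0.13, adjusted p = 0.00463). The ROR receptors, which activate where REV-ERB represses, were not called: Rora changed by -0.24 (adjusted p = 0.374) and Rorb by 0.06 (0.803).

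Among the D-box factors, Dbp (13170, chr7:45705247-45710203), whose product drives the clock's output genes, was at 5.01, 5.19 and 3.54 in controls and at 9.87, 10.25 and 10.07 in NASH. It rose in every pair, by 4.85, 5.06 and 6.53, and the fitted change was 44.7-fold (5.48, SE 0.60, adjusted p = 0.00218). Control 3 was the lowest value, and the NASH libraries lay close together. Tef (21685, chr15:81811414-81826863) went from 10.17, 10.74 and 10.77 to 11.37, 11.82 and 12.02, with a closely similar step of 1.20, 1.07 and 1.25 in the 3 pairs (1.17, SE 0.16, adjusted p = 0.00463). Hlf, the third factor of this family, was at 10.70 to 10.79 in controls and 11.12 to 11.38 in NASH (0.49, SE 0.14, adjusted p = 0.0454).

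Of the Period genes, Per3 (18628, chr4:151003655-151044665), the gene whose window above carries the D-box at 2 places, was at 6.27, 6.76 and 6.44 in controls and 7.82, 8.33 and 8.38 in NASH. It rose 3.22-fold (1.69, SE 0.19, adjusted p = 0.00276). Per2 (18627, chr1:91415982-91459328) was nearly constant in controls at 7.23, 7.14 and 7.24 and stood at 8.11, 8.60 and 8.62 in NASH (1.24, SE 0.21, adjusted p = 0.0086). Per1 was not called: control 1 (9.45) lay above all 3 NASH libraries (8.35, 8.29 and 8.67), and controls 2 and 3 (7.53 and 7.64) lay below them (0.23, SE 0.50, adjusted p = 0.79). Its pairs changed by -1.10, 0.76 and 1.03, and limma called it in replicates 2 and 3 alone (0.89, adjusted p = 0.024).

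Of the REV-ERB receptors, Nr1d2 (353187, chr14:18204056-18239106) was at 9.75, 9.01 and 8.91 in controls and 10.65, 10.35 and 10.66 in NASH, a 2.51-fold rise (1.33, SE 0.21, adjusted p = 0.00834). Nr1d1 (217166, chr11:98767932-98775377) was at 9.70, 8.80 and 8.79 against 11.04, 10.02 and 9.80 (1.19, SE 0.29, adjusted p = 0.0285). Cry2 rose by 0.54 (SE 0.15, adjusted p = 0.0379) from 7.86 to 7.99 in controls to 8.40 to 8.57 in NASH, while Cry1 changed by -0.27 (SE 0.30, adjusted p = 0.576). Bhlhe40, a repressor of E-box genes, was higher in every NASH library than in any control but was not called (0.67, SE 0.23, adjusted p = 0.0776). The kinases Csnk1d and Csnk1e, which set the stability of PER, changed by -0.32 and -0.06 and were not called (adjusted p = 0.0541 and 0.897).

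Nfil3, Npas2, Arntl, Clock, Dbp, Tef, Per2, Per3 and Nr1d2 were called with any single library left out. The calls of Nr1d1, Cry2 and Hlf were lost in 4, 6 and 5 of the 6 fits that left out a 12-week library, each without controls 2 or 3 and without NASH 1 or 2, with adjusted p up to 0.111, 0.116 and 0.165. Cry2 and Hlf also missed the threshold without some 24-week libraries (adjusted p up to 0.05 and 0.06). In a fit with the trend on length and GC removed Nr1d1 also missed the threshold (1.15, adjusted p = 0.0793). Reads of Dbp and of Nr1d1 can overlap those of Sphk2 and Thra, whose gene models cross theirs in RefSeq, and strand use in counting is not given in the sources used here. Sphk2 changed by -0.18 (adjusted p = 0.592), and Thra fell (-0.57, adjusted p = 0.0334). The part of shared reads in the values of Dbp and Nr1d1 was not tested.

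**Figure D2:**
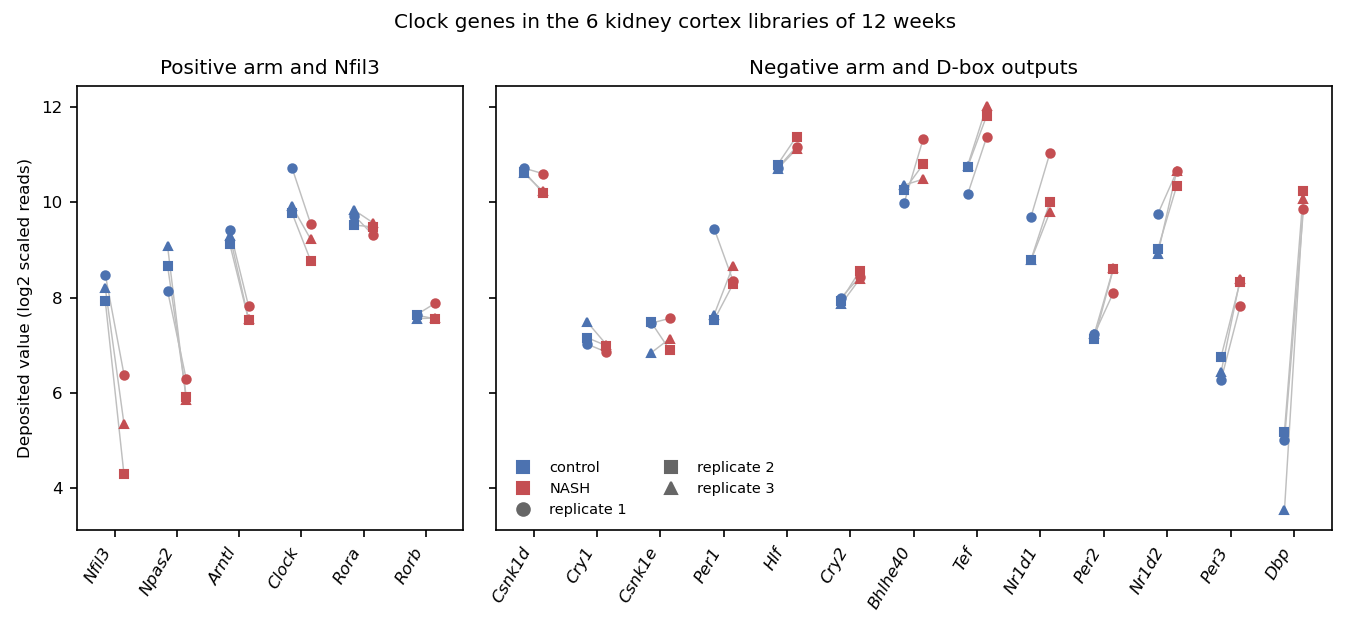
Deposited log2 values (vertical axis) of 19 clock genes in the 6 libraries of 12 weeks; blue is control, red is NASH, symbols give the replicate number and grey lines join same-numbered libraries. On the left, Nfil3, Npas2, Arntl and Clock fell in each pair; on the right, Dbp, Per2, Per3, Tef, Nr1d1 and Nr1d2 rose in each pair, with Dbp rising most (5.48).

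At 24 weeks none of these genes was called. There Arntl differed between NASH and control by 0.11, Npas2 by -0.03, Clock by -0.19, Dbp by -0.20, Per2 by -0.19, Per3 by 0.35, Tef by -0.15, Nr1d1 by -0.15 and Nr1d2 by -0.15, and Nfil3 by 0.38. The difference between the effects at the 2 times was tested in the same model, and 1 gene of 11614 passed (0.00861%). That gene was Nfil3 (24 minus 12 weeks 3.24, SE 0.37, adjusted p = 0.034), and the other clock genes had an adjusted p of at least 0.0739 (Dbp and Npas2). Since arms of the clock that peak at different hours moved in opposite directions, and no label gives the hour of dissection, a difference in the hour at which the groups were taken cannot be told apart from an effect of the treatment. This holds for every gene below that follows a daily rhythm.

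Outside these lists, genes known to follow the clock in the kidney or liver did not move together. Of 20 measured, 2 rose and 3 fell (25% called, against 12.9% of all genes). Their median was -0.05 (0.11 with the trend removed, and 3 calls). Tspan4 rose (0.88, adjusted p = 0.00848) and so did Por, the electron donor of cytochrome P450 enzymes (0.73, 0.0152). Slc9a3, the sodium-proton exchanger NHE3 of the proximal tubule, fell (-0.93, 0.0115), as did the fatty acid receptor Ppard (-1.99, 0.0137) and the vasopressin receptor Avpr1a (-1.52, 0.0245). The call of Tspan4 held with any 12-week library left out, and the count of 5 ranged from 2 (without control 2 or 3) to 6 (without control 1).

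**Figure D3:**
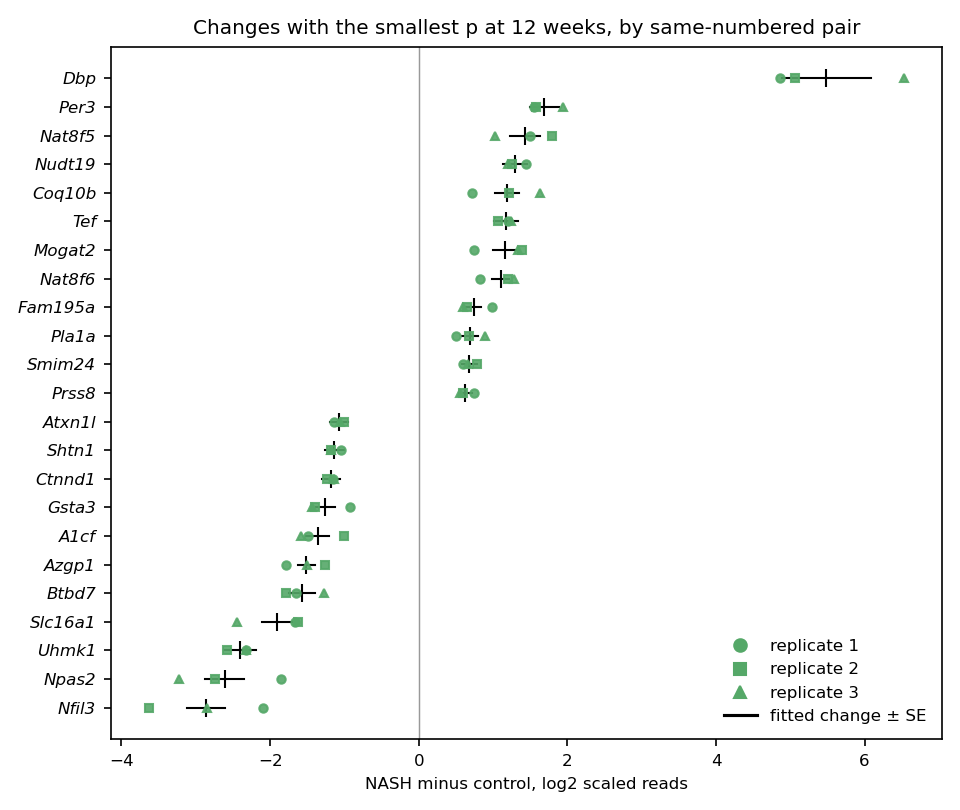
Change between same-numbered NASH and control libraries (symbols, log2) and fitted change with SE (black) for 23 of the genes with the smallest p, which are 12 higher and 11 lower. Genes were chosen with all 3 pairs on the same side of 0, and the fitted changes run from Nfil3 at -2.86 to Dbp at 5.48.

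Of the 12 genes with the smallest p in the lower direction, 10 lie outside the clock lists. Azgp1 (12007, chr5:137981521-137990232), a secreted protein that mobilizes lipid, had the smallest p of all genes. It was at 8.50 in control 1 and 6.71 in NASH 1, and at 11.79 and 12.07 in controls 2 and 3 against 10.53 and 10.57 in their NASH partners. The groups overlap because replicate 1 is far lower, yet the pairs changed by -1.79, -1.26 and -1.499 (2.86-fold, -1.52, SE 0.11, adjusted p = 0.000527). It was also the only gene called at 24 weeks (1 of 11614, 0.00861%), with a change of -1.43 (adjusted p = 0.00094).

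Slc16a1 and Gsta3 transport or conjugate small molecules. Slc16a1 (20501, chr3:104638664-104658462), the lactate and ketone carrier MCT1, went from 10.79, 10.49 and 10.88 to 9.13, 8.86 and 8.44 (-1.91, SE 0.20, adjusted p = 0.00209). Gsta3 (14859, chr1:21240585-21265575), a glutathione transferase, went from 11.61, 11.50 and 11.35 to 10.68, 10.10 and 9.91 (-1.26, SE 0.12, adjusted p = 0.00209). In both genes the groups did not overlap. Ndrg1 (17988, chr15:66929318-66969641), which is induced by low oxygen and other stress, was among the most abundant transcripts at 16.11, 15.87 and 16.27 in controls and fell 2.69-fold, to 14.87, 14.69 and 14.40 (-1.43, SE 0.18, adjusted p = 0.00394).

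Others were regulators and junction proteins. Uhmk1, a kinase that acts on splicing factors, was at 9.19, 7.25 and 7.99 in controls and at 6.87, 4.67 and 5.67 in NASH (5.30-fold, -2.41, SE 0.22, adjusted p = 0.00131). Ctnnd1, the p120 catenin that holds cadherins at the cell surface, fell by 1.18 on the log2 scale (SE 0.12, adjusted p = 0.00209), and its 3 pairs by 1.16, 1.24 and 1.14. A1cf, a cofactor of Apob mRNA editing, changed by -1.36 (SE 0.15), Btbd7, a regulator of epithelial branching, by -1.57 (SE 0.17), Atxn1l, a co-repressor of transcription, by -1.07 (SE 0.12), and Shtn1 by -1.14 (SE 0.13). Their adjusted p-values ran from 0.00211 for Btbd7 to 0.00297 for Atxn1l. Azgp1, Slc16a1, Gsta3, Ndrg1 and these regulators kept their call with any single library left out and with the trend on length and GC removed, where Uhmk1 was at -2.33, A1cf at -1.12 and Ctnnd1 at -0.88.

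In the higher direction, 9 of the 12 genes with the smallest p lie outside the clock lists. Nudt19 (110959, chr7:35547185-35555928), a peroxisomal enzyme that degrades coenzyme A in the kidney, was at 10.83, 12.90 and 13.15 in controls and 12.27, 14.16 and 14.35 in NASH. The groups overlap through replicate 1, and the pairs rose by 1.44, 1.26 and 1.20 (1.30, SE 0.16, adjusted p = 0.00394). Mogat2 (233549, chr7:99219084-99238611), which acylates monoacylglycerol on the way to triglyceride, rose 2.23-fold without overlap, from 8.41, 7.93 and 7.72 to 9.15, 9.33 and 9.06 (1.16, SE 0.16, adjusted p = 0.00463). At 24 weeks its change was 1.18 (adjusted p = 0.0688). Coq10b (67876, chr1:55052770-55072702), a coenzyme Q binding protein of mitochondria, went from 9.38, 9.07 and 8.87 to 10.09, 10.29 and 10.50 (1.19, SE 0.16, adjusted p = 0.00463). Its smallest step was in pair 1 (0.71) and its largest in pair 3 (1.63).

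Nat8f6 (1.10, SE 0.12, adjusted p = 0.00209) and Nat8f5 (1.43, SE 0.20, adjusted p = 0.00519), N-acetyltransferases encoded side by side on chromosome 6, rose in each pair. They are close paralogs, so the split of reads between them is uncertain. Nat8f5 was at 5.72 in control 1 and 7.21 in NASH 1 and between 9.30 and 11.09 in the other libraries. Prss8, or prostasin, a protease that activates the epithelial sodium channel, was at 12.12 to 12.43 in controls and 12.86 to 13.02 in NASH (0.63, SE 0.09, adjusted p = 0.00523). Its gene model crosses that of Kat8 in RefSeq, which changed by 0.11 (adjusted p = 0.697). Pla1a, a phospholipase that acts on phosphatidylserine, went from 9.97 to 10.21 up to 10.69 to 10.89 (0.69, SE 0.10, adjusted p = 0.00686). The short transcripts Fam195a (0.74, adjusted p = 0.00463) and Smim24 (0.68, 0.00665) rose as well, but not with the trend on length and GC removed (0.29 and 0.27, adjusted p = 0.12 and 0.341). All 9 kept their call with any single library left out.

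Some genes with larger changes varied more between pairs. Ttr (22139), the carrier of thyroid hormone and retinol, was at 7.22, 10.06 and 9.78 in controls and 10.37, 12.60 and 12.40 in NASH (2.77, SE 0.59, adjusted p = 0.0185), and its call ended without control 1, NASH 2 or NASH 3 (adjusted p up to 0.0628). Mfsd2a, which carries lysophosphatidylcholine, went from 5.50, 6.23 and 7.10 to 7.87, 8.47 and 10.39 (2.63, SE 0.53, adjusted p = 0.0148), and was lost without control 1 or 3 (up to 0.0512). Igfbp1, a fasting-induced binding protein of insulin-like growth factors, went from 5.96, 4.19 and 4.54 to 8.40, 7.48 and 5.77 (2.32, SE 0.46, adjusted p = 0.0144) and was lost without controls 2 or 3 or NASH 1 or 2 (up to 0.065). Ccl28, a chemokine of mucosal epithelia, rose by 2.31 (SE 0.52, adjusted p = 0.021), from 4.80, 5.57 and 8.18 to 6.24, 9.51 and 9.75, and was lost without controls 1 or 2 or NASH 2 or 3 (up to 0.0803). Of these 4 genes only Ttr and Mfsd2a had groups that did not overlap.

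On the lower side, Ces1g, a carboxylesterase of lipid metabolism, was at 6.23 in control 1 and 5.83 in NASH 1, but at 10.66 and 11.53 in controls 2 and 3 against 7.38 and 6.47 in NASH (-2.92, SE 0.76, adjusted p = 0.0337). Bhmt, which methylates homocysteine with betaine, showed the same split, at 10.59 and 10.43 in replicate 1 and at 7.60 and 7.72 against 4.55 and 5.01 in replicates 2 and 3 (-1.97, SE 0.46, adjusted p = 0.0252). In both genes the drop was larger in the 2 pairs with male expression, and whether the pairs differ was not tested. Both calls ended without replicates 2 or 3 of either group (adjusted p up to 0.131 for Ces1g and 0.104 for Bhmt). Xylt1, which starts glycosaminoglycan chains, fell 4.54-fold (-2.18, SE 0.39, adjusted p = 0.0108) and was lost without control 3 (0.0511). Nhs, a regulator of actin, fell 4.05-fold (-2.02, SE 0.38, adjusted p = 0.0127) and was lost without NASH 1 (0.0526). Ppard was at 9.73, 9.96 and 10.46 in controls and 8.93, 7.55 and 7.69 in NASH (SE 0.38), with no overlap, and was lost without control 2 or 3 (up to 0.0589).

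Along the nephron, 4 of 25 markers of the middle and late proximal tubule rose and none fell, and 2 of 20 markers of the early proximal tubule fell and none rose. Over all genes 3.01% rose and 9.85% fell, so the early share is near that of all genes. The change was positive in 21 of the 25 middle and late markers, and their median was 0.52 (0.63 with the trend removed, and 0.67, 0.28 and 0.70 in pairs 1, 2 and 3). Over all genes 40.4% had a positive change. Slc13a2, the citrate carrier NaDC1, was at 9.13, 9.33 and 9.05 in controls and 10.83, 10.59 and 10.38 in NASH (1.43, SE 0.23, adjusted p = 0.00859), and kept its call with any library left out. Slc5a10, a mannose and fructose carrier, went from 9.95, 10.72 and 10.40 to 12.65, 12.40 and 12.30 (4.26-fold, 2.09, SE 0.38, adjusted p = 0.0117), and was lost without control 3 or NASH 1 (up to 0.0532). Its model crosses Fam83g, which changed by -0.66 (adjusted p = 0.0517). Pck1, the entry enzyme of gluconeogenesis, rose 3.68-fold (adjusted p = 0.0316) and the protease Napsa 3.33-fold (0.0484), and both were lost in 5 of the 6 fits without a 12-week library, all but that without control 1 for Pck1 and control 2 for Napsa, whose change was 0.94 without control 1. The list's calls ranged from 1 (without control 3 or NASH 1) to 4. Other markers were uneven. The organic anion carrier Slc22a7 was at 8.42, 10.46 and 9.23 in controls and 12.02, 10.58 and 12.41 in NASH (2.30, SE 0.97, adjusted p = 0.137), and Cyp7b1 was at 12.16 in NASH 3 and at 5.60 to 9.24 elsewhere (1.72, adjusted p = 0.346).

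Of 20 early proximal markers 1 had a positive change and 2 fell, with a median of -0.31 (-0.27 with the trend removed; -0.40, -0.03 and -0.51 in the pairs). Slc9a3 went from 10.27, 9.09 and 9.60 to 9.15, 8.58 and 8.43 and was lost without control 3 (-0.90, adjusted p = 0.0536). Slc7a8, a carrier of neutral amino acids, fell by 0.60 on the log2 scale (adjusted p = 0.0263), and was lost without controls 1 or 3 or NASH 1 or 3 and with the trend removed (-0.43, adjusted p = 0.155). The sodium-glucose cotransporter Slc5a2 (-0.36, adjusted p = 0.116) and the phosphate carrier Slc34a1 (-0.10, 0.712) were not called, and Slc34a1 lay between 16.41 and 16.93 in all 6 libraries. No early marker was called without control 3, 1 without control 1, NASH 1 or NASH 3, and 4 without control 2. In the endocytic machinery of this segment, Clcn5, the chloride-proton exchanger of endosomes, fell 2.33-fold from 10.23, 8.80 and 9.22 to 8.58, 8.09 and 7.92 (-1.22, SE 0.21, adjusted p = 0.00949), while the 19 genes of that list had a median of 0.01 (0.15 with the trend removed), with 3 that fell and 1 that rose, and 2 called with the trend removed.

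The loop of Henle gave no marker called by limma, and 1 thin limb and 0 thick limb markers had an unadjusted p under 0.05. All 9 thin limb markers had a positive change (median 0.47) and 12 of 18 of the thick ascending limb did (median 0.36), against 40.4% of all genes. But the pairs disagreed: the thick limb medians were 0.45, -0.60 and 0.84 and those of the thin limb 0.38, -0.31 and 1.503. Umod, the urinary protein of the thick limb, was at 14.54, 14.74 and 13.83 in controls and 15.43, 14.13 and 15.58 in NASH (0.68, SE 0.43, adjusted p = 0.318). Slc12a1, the furosemide-sensitive cotransporter, was highest in NASH 3 (12.95) and NASH 1 (12.68) and at 11.10 in NASH 2 (adjusted p = 0.62). The water channel Aqp4 of the collecting duct followed the same order (10.36 in NASH 3, 9.48 in NASH 1 and 5.33 to 7.91 elsewhere). The loop runs from the cortex into the medulla, and the part of the depth of dissection in these values was not tested.

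Of 15 markers of the connecting tubule 5 fell and none rose, against 9.85% lower over all genes, with a median of -0.41 (-0.28 with the trend removed; -0.36, -0.52 and -0.58 in the pairs). Slc8a1, the sodium-calcium exchanger, went from 11.22, 9.84 and 9.95 to 9.98, 7.72 and 8.45 (3.07-fold, -1.62, SE 0.34, adjusted p = 0.0167). Calb1, the calcium buffer calbindin, went from 13.48, 12.48 and 12.30 to 12.62, 11.03 and 11.14 (-1.15, SE 0.27, adjusted p = 0.0255). The apical calcium channel Trpv5 (-0.89, adjusted p = 0.0442) and the calcium pumps Atp2b1 (-0.49, 0.0191) and Atp2b4 (-0.84, 0.027) fell as well. Every pair moved down in these 5 genes, and replicate 1 was highest in both groups. No marker of the list was called without control 2, control 3, NASH 1 or NASH 2, 4 were without control 1, 5 without NASH 3, and 1 with the trend removed (Slc8a1, -1.27, adjusted p = 0.0457).

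Of 19 genes listed for the distal convoluted tubule 4 fell and 1 rose, against 9.85% lower and 3.01% higher over all genes. How far each of them is confined to this segment was not tested. The median of the list was -0.34, and 0.00 with the trend removed, when 1 gene was called. Slc12a3, the thiazide-sensitive cotransporter, went from 13.87, 12.79 and 12.68 to 13.33, 12.01 and 12.01 (-0.66, SE 0.15, adjusted p = 0.0236), and was still called with the trend removed (-0.63, adjusted p = 0.0408). The kinase Wnk1 (-0.76, adjusted p = 0.0374), the sphingomyelin synthase Sgms2 (-0.47, 0.038) and the channel Trpm7 (-0.50, 0.0498) fell, while Fxyd2, a small subunit of the sodium pump, rose (0.50, 0.0397). No gene of the list was called without controls 2 or 3 or NASH 1 or 2, and 2 were without control 1.

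In collecting duct principal cells, Aqp2, the vasopressin-regulated water channel, was at 9.68, 10.78 and 9.57 in controls and 11.11, 11.32 and 11.96 in NASH (2.75-fold, 1.46, SE 0.35, adjusted p = 0.027). It was lost without controls 1 or 3 or NASH 1 or 3 (up to 0.112), and with the trend removed (1.12, 0.112). Prss8 rose (above), and Nr3c2, the mineralocorticoid receptor, fell from 8.26, 6.97 and 7.17 to 7.58, 5.78 and 6.05 (-0.997, SE 0.22, adjusted p = 0.0202). Nr3c2 was lost without controls 2 or 3 or NASH 1 or 2 (up to 0.0802) and with the trend removed (-0.74, 0.0796). The sodium channel subunit Scnn1a changed by -0.17 (adjusted p = 0.455), and the median of the 19 markers was -0.17. The 3 calls of the list, which are 15.8% of it against 12.9% of all genes, became 1 without control 3 or NASH 1. Over all genes 40.4% had a positive change and 9.85% fell. Of 20 intercalated cell markers 3 had a positive change and 1 fell, the anion exchanger Slc26a4 (-0.53, adjusted p = 0.0449), with medians of 0.07, -0.52 and -0.58 in the pairs. That call was lost without any 12-week library other than NASH 1 (adjusted p up to 0.169), and with the trend removed (-0.38, 0.217), and 3 markers of the list were called without control 1.

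In the glomerulus, Cldn1 and Prom1, markers of the parietal epithelium of Bowman's capsule, fell in each pair and with any library left out. Cldn1, a tight junction claudin, went from 9.74, 9.10 and 9.31 to 8.68, 7.88 and 8.12 (-1.16, SE 0.15, adjusted p = 0.00453), without overlap. Prom1 (CD133) went from 11.92, 9.67 and 9.60 to 10.77, 8.44 and 8.66 (-1.10, SE 0.16, adjusted p = 0.00596). The other 4 measured parietal markers had a positive change and the list's median was 0.06. Podocyte markers had a median of -0.22 (0.08 with the trend removed), and the slit diaphragm gene Nphs1 changed by 0.07 (adjusted p = 0.833). Col4a4 (-0.67, 0.0166) and Magi2 (-0.66, 0.0373) fell among 19 markers, a share of 10.5% against 9.85% over all genes. No podocyte marker was called without controls 2 or 3 or NASH 1, or with the trend removed.

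**Figure D4:**
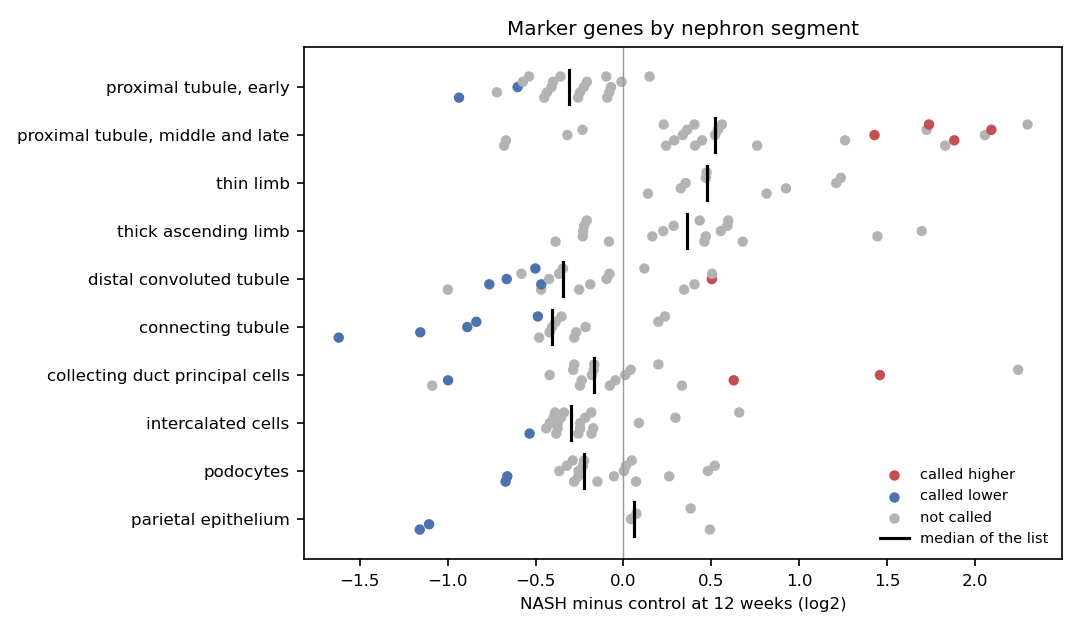
Change of each marker gene (points, log2, NASH minus control) by nephron segment, with the list's median as a black bar; red and blue points are genes called higher and lower. The middle and late proximal tubule has its median at 0.52 and the connecting tubule at -0.41.

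Markers of other cells gave few calls. Since the samples are bulk tissue, fewer cells of a type and less RNA per cell cannot be told apart. None of 21 endothelial, 30 fibroblast and matrix, 23 macrophage and dendritic cell, and 14 mesangial and smooth muscle markers was called by limma, and 1, 3, 0 and 0 of them had an unadjusted p under 0.05. Without control 1, 2 endothelial and 2 fibroblast markers were called. Their medians were 0.39, -0.63 and 0.11 in the pairs for endothelium, 0.28, -0.63 and 0.25 for fibroblasts and 0.61, -0.65 and 0.55 for macrophages, so NASH 2 stood below its control and the other NASH libraries above theirs. Col1a1, the main fibrillar collagen, was at 8.29, 8.95 and 8.51 in controls and 9.42, 8.33 and 8.94 in NASH (0.32, SE 0.35, adjusted p = 0.58), and Havcr1 (KIM-1), a marker of tubular injury, at 4.89 to 6.39 and 4.68 to 7.16 (0.37, SE 0.82, adjusted p = 0.792). No marker of T and NK cells, B and plasma cells, neutrophils or adrenal cortex was among the deposited genes.

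Adipocyte, red cell and liver markers varied between libraries. Of 16 adipocyte markers 14 had a positive change (median 0.70), against 40.4% of all genes. None was called by limma, and 1 had an unadjusted p under 0.05. Adipoq was at 6.56, 2.34 and 2.40 in controls and 7.93, 5.67 and 3.77 in NASH (adjusted p = 0.362). No erythroid gene was called either, with 5 of 10 at an unadjusted p under 0.05. The 10 genes summed to 6243, 6181 and 6147 scaled reads in controls and 12533, 6498 and 5658 in NASH, so that NASH 1 alone stood out. The alpha globin Hba-a1 was at 8.20 in control 1 and 11.17 in NASH 1. Of 16 hepatocyte markers Ttr and Apoa2 (1.12, adjusted p = 0.0377) rose and Apob fell (-0.67, 0.0151), while albumin (Alb) changed by 0.46 (0.506) and lay between 7.55 and 9.90. The share called was 18.75% of this list, against 12.9% of all genes. Without a 12-week library at most 2 of these 3 calls remained, none without control 1 or NASH 2, and 1 hepatocyte marker was called with the trend removed. The part of such cells in the changes above was not tested.

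Among metabolic pathways, cholesterol synthesis gave 3 genes that fell and 1 that rose of 24, or 16.7% called against 12.9% of all genes. Its median was -0.22 (-0.12 with the trend removed). Fdps (-0.71, adjusted p = 0.0466) and the regulator Srebf2 (-0.58, 0.0425) were among those that fell. Ebp, the sterol isomerase, rose with nearly equal steps of 0.67, 0.65 and 0.68 in the pairs (SE 0.13, adjusted p = 0.0143). The 4 calls became 1 without control 3, and 2 without NASH 1 or NASH 2. Of 16 genes of gluconeogenesis 12.5% were called, as Pck1 rose and G6pc fell (-0.80, 0.0434). No more than 1 of the 2 was called without a 12-week library, and neither with the trend removed.

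Antioxidant enzymes had a positive change in 19 of 20 genes (40.4% over all genes), with a median of 0.21 (0.16 with the trend removed, when none was called). Of the 20 genes 5 rose, against 3.01% of all genes. The reductases Prdx5 and Glrx5, the superoxide dismutases Sod1 (0.48, adjusted p = 0.0285) and Sod3 (0.36, 0.0246) and the lipid peroxide reductase Gpx4 (0.53, 0.0289) were these 5. Between 0 and 2 of the 5 calls were left without a 12-week library, none without control 1 or 2 or NASH 1. Of 25 targets of NRF2, the master regulator of such defences, 2 rose and 2 fell, namely Gclc, which starts glutathione synthesis (0.87, adjusted p = 0.0423), and Ephx1 (0.57, 0.0464) against Gsta3 (above) and the efflux pump Abcc4 (-0.98, 0.0431). These calls made 16% of the NRF2 list, against 12.9% of all genes. The list's median was -0.09 (-0.19 with the trend removed, and 2 calls), and 1 to 3 of its genes were called without a 12-week library.

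Interferon response genes had a positive change in 32 of 35, against 40.4% of all genes. Of the 35, only 1 rose, against 3.01% of all genes, and the medians were 0.46, -0.21 and 0.98 in the pairs. Irf7, a driver of that response, was at 7.14, 7.59 and 6.81 in controls and 8.77, 7.84 and 8.47 in NASH (1.18, SE 0.28, adjusted p = 0.0268). It was lost without controls 1 or 3 or NASH 1 or 3 (up to 0.107) and with the trend removed (1.05, 0.0524), when no interferon gene was called, while 3 genes of the list were called without control 2. Among 22 targets of HIF, the hypoxia-induced factors, Egln3, an oxygen sensor, rose (1.21, adjusted p = 0.0143), as did Ak4 (0.60, 0.0306), and Ndrg1 fell. These calls made 13.6% of the HIF list, against 12.9% of all genes, and its median was 0.05 (0.20 with the trend removed). Egln3 was lost without control 3 or NASH 1 (up to 0.0659), when 1 of the 3 calls was left. The chaperone Hspb8 rose 3.45-fold, from 6.67, 6.59 and 6.44 to 7.54, 9.03 and 8.49 (1.79, SE 0.31, adjusted p = 0.00959), and missed the threshold without control 3 (1.63, 0.0501).

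Several gene families of short transcripts had positive medians, and some others had negative ones. Over all genes 3.01% rose, 9.85% fell and 40.4% had a positive change. In the shortest of the 5 length bins 227 of 2323 genes rose, and in the longest 549 of 2323 fell. Collagens, the family with the longest transcripts (median 6449 bases), had a median GC of 55.9%, against 50.3% over all genes. Their median change was 0.00 (0.13 with the trend removed), with 1 of 34 lower. The short glutathione transferases (1037 bases, GC 51.5%) had a median change of -0.13 (-0.19 with the trend removed). The parts of length and of GC in the median of a family were not tested. Of 37 subunits of respiratory complex I, which passes electrons from NADH to ubiquinone, 36 had a positive change and 19 rose, with a median of 0.40 and a median transcript length of 739 bases. Ndufb4 went from 10.78, 11.47 and 11.29 to 11.52, 12.02 and 11.90 (0.63, SE 0.10, adjusted p = 0.00859). Ndufa13 rose by 0.64 (0.00859) and Ndufa6 by 0.53 (0.00873), and these 3 kept their calls with any library left out. With the trend on length and GC removed the list's median was 0.15 and 1 subunit was called. Ndufb4 was then at 0.24, Ndufa13 at 0.33 and Ndufa6 at 0.17 (adjusted p = 0.163, 0.0743 and 0.388). Of the 19 calls 4 to 11 remained without a 12-week library, with fewest without NASH 1.

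Complexes III and IV also had genes that rose. Complex III had 3 genes that rose among 9 and complex IV, cytochrome oxidase, 5 among 13, with medians of 0.35 and 0.40 (0.08 each with the trend removed). Over all genes 3.01% rose. Without a 12-week library 0 to 3 genes of complex III were called, none without NASH 1, and 2 or 3 of complex IV. In complex II limma called 0 of 4 genes (median 0.21), 2 of which had an unadjusted p under 0.05, and in ATP synthase 3 of 19 rose (median 0.26, and 0.04 with the trend removed), with 0 or 1 called without a 12-week library. Cox7c went from 11.08, 11.33 and 11.02 to 11.74, 11.85 and 11.71 (0.62, SE 0.10, adjusted p = 0.00859). Uqcrq of complex III changed little when the trend was removed, at 0.89 as deposited and 0.87 with it removed (adjusted p = 0.0144 and 0.0252). It was lost without NASH 1 (0.71, 0.0591). With the trend removed 1 gene of the complex I list and 1 of the ATP synthase list were called as well. Of 83 cytosolic ribosomal proteins 81 had a positive change and 20 rose, with a median of 0.31 and a median length of 684 bases. With the trend removed the median was 0.04 and none was called. Rpl27 (0.45, adjusted p = 0.0277), Rpl18 (0.50, 0.028) and Rps27l (0.53, 0.0221) had the smallest p. Their 20 calls fell to 0 without control 1, control 3 or NASH 1, to 1 without control 2, to 4 without NASH 2 and to 9 without NASH 3. The 78 mitochondrial ribosomal proteins had a median of 0.22 (0.07), with 11 that rose, of which 0 to 8 were called without a 12-week library.

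In the other direction stood families that act on chromatin, RNA and ubiquitin. The share of all genes that fell was 9.85%, and 40.4% had a positive change. In the longest of the 5 length bins 549 of 2323 genes fell, with a median change of -0.30. Of 45 enzymes that methylate or demethylate chromatin 4 had a positive change and 11 fell, with a median of -0.31 (-0.09 with the trend removed) and a median length of 6300 bases. Kmt2e, of the MLL family (-0.44, adjusted p = 0.0178), and Kdm4a, a demethylase of histone H3 (-0.57, 0.0192), had the smallest p. Of 232 zinc finger (Zfp) genes 45 had a positive change, 33 fell and 1 rose (median -0.26, and -0.07 with the trend removed). Zfp507 went from 8.92, 8.53 and 8.32 to 7.93, 7.57 and 7.64 (-0.88, SE 0.16, adjusted p = 0.0111). With the trend removed none of the 11 chromatin genes and 2 of the zinc finger genes were called. Without controls 1, 2 or 3 or NASH 1, 2 or 3, 4, 0, 0, 0, 2 and 10 chromatin genes and 13, 6, 2, 2, 10 and 37 zinc finger genes were called.

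Of 49 DEAD and DEAH box RNA helicases 9 fell, led by Ddx3x, which unwinds RNA in translation (12.73, 11.81 and 12.07 in controls against 11.90, 11.08 and 11.41 in NASH; -0.74, SE 0.09, adjusted p = 0.00421). Of 52 splicing factors of the SR and hnRNP families 11 fell, among them Hnrnpk (-0.43, adjusted p = 0.0134), whose call was lost without control 2 or 3. In the ubiquitin system 15 of 90 Trim and Rnf ligases and 9 of 40 Usp proteases fell, with Rnf6 at -0.90 (0.00463) and Usp12 at -0.78 (0.0107). No gene of these 4 families rose, against 3.01% higher and 9.85% lower over all genes. The medians of the 4 families ran from -0.17 to -0.26 as deposited and from -0.10 to -0.00 with the trend removed. Ddx3x (-0.44, adjusted p = 0.0212), Rnf6 (-0.71, 0.0145) and Usp12 (-0.53, 0.0325) remained called with the trend removed and with any library left out. Without a 12-week library the helicase count was at its lowest at 3 (without control 2 or NASH 1), that of the splicing factors at 0 (without control 2 or 3), that of the ligases at 2 (without control 3) and that of the proteases at 2 (without control 3 or NASH 1).

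Of 23 integrins, receptors for the matrix, 4 fell and none rose, against 9.85% lower and 3.01% higher over all genes. Their median was -0.17 (0.02 with the trend removed). Itga6, which anchors epithelium to laminin, was at 12.25, 11.07 and 10.67 in controls and 11.30, 9.41 and 9.30 in NASH (2.51-fold, -1.33, SE 0.16, adjusted p = 0.00334), and was still called with the trend removed (-1.01, 0.0145) and with any library left out. Itgb8, an activator of TGF-beta, fell by 1.39 on the log2 scale (SE 0.27, adjusted p = 0.0134), with -1.20 when the trend was removed (0.0562). Itgb6, which shares that role, went from 11.01, 10.95 and 11.14 to 10.30, 9.69 and 10.15 (-0.98, SE 0.18, adjusted p = 0.0108), and was lost without control 3 (-0.87, 0.0546). Between 2 and 4 integrins were called without a 12-week library. In transport along microtubules 6 of 25 kinesins and dyneins fell (median -0.20, and -0.01 with the trend removed), with 2 to 7 called without a 12-week library. Kif3b, a motor of the primary cilium (-1.02, SE 0.15, adjusted p = 0.00595), and Kif13b (-1.05, SE 0.17, adjusted p = 0.00859) kept their call with any library left out and with the trend removed (-0.71 and -0.81).

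**Figure D5:**
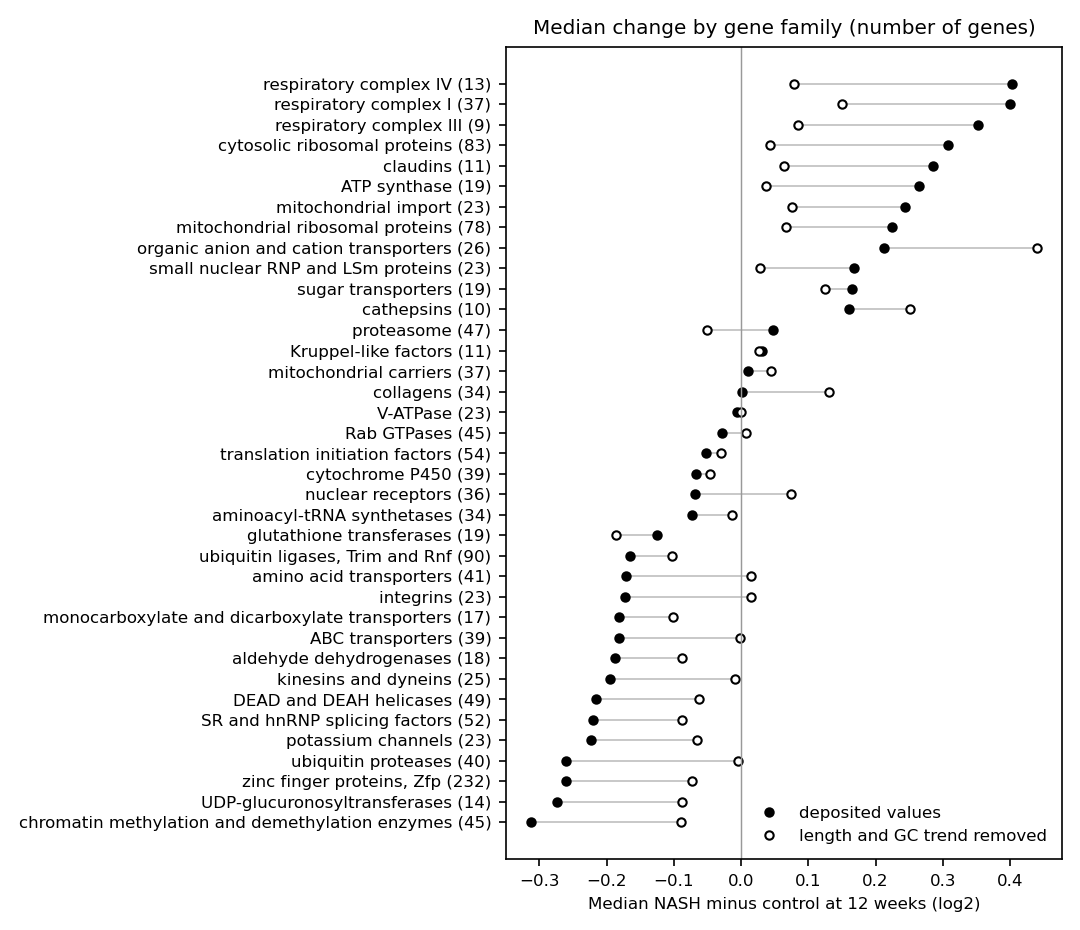
Median change (horizontal axis, log2, NASH minus control) of each gene family, with the number of genes in brackets; filled points are the deposited values and open points those with the trend on length and GC removed. Ribosomal and respiratory families move from 0.31 to 0.04 and from 0.40 to 0.15 or less, and chromatin enzymes from -0.31 to -0.09.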

How the data were processed

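RNA from mouse kidney cortex was sequenced in 12 libraries, 3 in each of 4 groups, and the 6 libraries of 12 weeks are compared here. The authors deposited one table per library, whose last column holds log2 values for 11614 genes. Per the submitters' processing notes BWA, limma and the mm10 build were used, with no versions or roles, and the scaling and the use of strand in counting are not given in the sources used here. No deposited gene had a maximum below 100 scaled reads, so weakly expressed genes were not measured. The depth of each library was estimated from the smallest step between its low values, of which 85.5% to 91.1% were whole multiples (within 0.01, below 60 steps). The limits in the report that follow from depth cover counting error only.

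The log2 values were fitted with limma 3.58.1 in R 4.3.3 over all 12 libraries, with 4 group means, the replicate number as a block and a mean-variance trend, leaving 6 residual degrees of freedom, and p-values were adjusted by the Benjamini-Hochberg method over all genes. Same-numbered libraries were taken as pairs because the comparison was set up by matching replicate numbers. Their deviations from the group means, correlated over genes, gave r of 0.187 to 0.742 in all 18 such pairs. Between numbers 2 and 3 the correlation ran from 0.187 to 0.637, with a median of 0.365. Between number 1 and numbers 2 and 3 the medians were -0.504 and -0.564. At 12 weeks control 2 gave 0.280 with NASH 2 and 0.390 with NASH 3. Control 3 gave 0.359 with NASH 3 and 0.637 with NASH 2. The correlations thus set replicate 1 apart but cannot tell number 2 from number 3, so the block mostly separates replicate 1. The separate steps of pairs 2 and 3 rest on the numbering alone. For the length and GC alternative, natural splines of transcript length and GC content (4 degrees of freedom each) were fitted to each library's deviation from the gene mean and subtracted. This covered the 11523 genes with GC content, which came from GENCODE transcripts matched by RefSeq accession. The other alternatives were no block, replicate 1 against 2 and 3 as the block, fewer libraries, other scalings, no trend, a robust fit, a level filter and each library left out. The fit was also run on simulated reads, in which same-numbered libraries shared their replicate shifts and the NASH change had no trend on length or GC. That run took the block as given, so it cannot tell whether the block or the trend removal is right. No result above rests on it.

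Named genes were, in each direction, the 12 with the smallest p and the 8 with the largest change among called genes that moved the same way in all 3 pairs and reached 100 scaled reads in the higher group. The 2 to 4 leading members of each of the described lists, all measured clock genes, and a fixed few (Dbp, Npas2, Slc16a1, Ndrg1, Coq10b, Havcr1, Col1a1, Slc34a1, Umod, Slc12a3, Aqp2) were added. Other genes in the text were chosen after their values were seen. The groups, the rule and the 88 gene lists, 4 of them without a measured gene, were chosen with earlier results of these data known. Predicted loci and 16 symbols turned into dates were left out of the named genes. Gene models of Bhlhe40 and Slc34a1 overlap another deposited gene, so their values are uncertain. Analyses were run in Python 3.11.15 with pandas 2.3.3. A few genes covered by this choice were left out of the text.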

Additional observations from a re-analysis of the deposited data

Results flagged for a closer look

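Nfil3, the D-box repressor of the clock, differed in its response between the times. It fell at 12 weeks (-2.86) and changed by 0.38 at 24 weeks, a difference of 3.24 on the log2 scale (SE 0.37, adjusted p = 0.034 by limma with the replicate block), with all 3 same-numbered pairs lower at 12 weeks. No other gene passed the test of that difference. The call for Nfil3 was lost without the block (adjusted p = 0.808), without the mean-variance trend (0.0734), and without 12-week control 2 (0.0784) or 3 (0.216) or NASH 3 (0.106), or 24-week control 2 (0.143) or 3 (0.171) or NASH 2 (0.06) or 3 (0.222). It was kept under median-of-ratios scaling (0.0195), quantile normalization (0.0044) and removal of the length and GC trend (0.0077), and in replicates 2 and 3 alone (3.70, 0.0122).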

How the results depend on the processing

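The number of genes called at 12 weeks (1494) was 6 without the replicate block, 473 with the 12-week libraries alone, 632 with replicates 2 and 3 alone, 926 without the mean-variance trend and 320 with the length and GC trend removed, and ran from 253 to 1533 with 1 library left out. It stayed within 1.5 times of 1494 with replicate 1 against 2 and 3 as the block (1495), under median-of-ratios scaling (1379), quantile normalization (1230), a robust fit (1556) and a level filter (1540). The number of genes whose effect differed between the times (1) was 0 without the block and without the mean-variance trend, 10 with replicate 1 against 2 and 3 as the block, 91 with replicates 2 and 3 alone, 4 under quantile normalization, and 0 to 29 with 1 library left out. Of 457 genes followed, 315 were called. Of these 6 kept their call without the block, 78 with the length and GC trend removed, 251 under median-of-ratios scaling, 52 in every fit without a 12-week library and 217 in every fit without a 24-week library. Among the 315 called genes, changes turned direction only with the length and GC trend removed. They went to 0.011 for Cltc, -0.076 for Cox8a, -0.0080 for Prdx5, -0.086 for Rpl35, -0.027 for Rps15, -0.027 for Rps28 and 0.029 for Sf3b1. Genes that were not called also turned in other fits, such as Col1a1 (0.32, and -0.091 in replicates 2 and 3 alone). Depth limits low genes most in NASH 2 and NASH 3, where 1 read is worth 1.96 and 1.70 on the deposited scale.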

Other observations

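Among transporters and drug-metabolizing enzymes, the share of genes called was 12.2% for amino acid transporters, 8.11% for mitochondrial carriers and 7.69% for cytochrome P450 genes, near or below the 12.9% of all genes, and 21.1% for sugar transporters. Of 41 amino acid transporters 2 rose and 3 fell (median -0.17, and 0.02 with the length and GC trend removed). Slc38a3, the glutamine carrier SNAT3 of the proximal tubule, was at 7.60, 8.84 and 6.70 in controls 1, 2 and 3 and 10.64, 9.18 and 9.95 in NASH libraries 1, 2 and 3 (2.21, adjusted p = 0.0318 by limma), and lost its call without controls 1 or 3 or NASH 1 or 3 (adjusted p up to 0.129). Slc43a2 fell (-0.82, adjusted p = 0.0114). Of the 19 genes listed as sugar transporters by symbol, 3 rose, namely Slc5a10, Slc5a6 (0.72, adjusted p = 0.0238) and the fructose carrier Slc2a5 (0.90, 0.0397). Slc5a6 is a multivitamin carrier that the symbol pattern took in, and the 21.1% includes it. In the same list 1 gene fell, Slc2a12 (-0.68, 0.0188). Without control 3 or NASH 1 no gene of that list was called.

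Of 37 mitochondrial carriers 3 fell and none rose, with a median of 0.01. Slc25a30 (-1.13, adjusted p = 0.00859) and the ornithine carrier Slc25a15 (-0.68, 0.00859) kept their call with any library left out. Of 39 cytochrome P450 genes 3 fell, Cyp2c44 (-1.08, adjusted p = 0.0113), Cyp2d12 (-1.07, 0.0383) and Cyp4a12b (-1.22, 0.0437), and at most 2 of the family were called without a 12-week library, none without control 3, and 1 was called with the trend removed. Cytochrome P450 genes of 1 subfamily are close paralogs, so their values are uncertain. Aqp8, a water and ammonia channel, had the largest decrease of all genes but was near the low end of the measured range, at 4.27, 6.09 and 6.59 in controls and 2.16, 1.97 and 0.77 in NASH (-4.02, adjusted p = 0.0303). Its call was lost in 5 of 6 fits without a 12-week library, all but that without control 1 (adjusted p up to 0.144), with the 12-week libraries alone (0.0506) and with the length and GC trend removed (0.06). Aqp8 was chosen after its values were seen.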
